A study of Homo sapiens with 8 samples.

Results

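Isolated CTCF peaks were those peaks of control HT1080 cells, on chromosomes 1 to 22, that had no other control peak within 200 kb on either side, measured edge to edge. By this rule 398 of the 46054 control peaks of these chromosomes were isolated (0.864%), and the whole list of control cells held 47470 peaks. HT1080 is a human fibrosarcoma cell line that the labels describe as positive for the ras oncogene, so that all libraries come from 1 line. Control cells were untreated, and treated cells received 3 µM CBL0137, a curaxin, in the culture medium for 6 h. ChIP with a polyclonal anti-CTCF antibody and input DNA were each sequenced in 2 biological replicates per condition, which makes 8 libraries. The authors called 1 list of peaks for each condition over both replicates, so that the lists hold no value per replicate and no read count, the depth behind a single peak is not known here, and the lists allow no test across replicates. A control peak is called kept if any part of it overlapped a peak of CBL0137-treated cells, and lost if none did.

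CTCF is a zinc-finger protein that binds a long DNA motif and, together with cohesin, holds the bases of chromatin loops and the borders of topologically associating domains. Binding of CTCF depends on how well the DNA matches the motif and, as the paper also states, on the methylation status of the site. Curaxins bind DNA and change its shape and the stability of nucleosomes without chemically damaging it.

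The DNA at the named isolated peaks is shown first, because some results below compare peaks by how well it matches the motif. Each line gives 30 bases of GRCh37, the build of the files, 5′ to 3′ in the direction of the motif. Capitals mark the best match to the 12-base core of the CTCF consensus, written in degenerate letters and searched on both strands in the 400 bp around the peak centre, and all the matches shown have at most 1 mismatch. The first 5 are the strongest kept isolated peaks with such a match, named by the gene they lie in or by the nearest start of a protein-coding gene.
ARGLU1, kept, chr13:107570554-107570583, minus strand: gcgcagcggCCAGTAGGGGGCagtgcgtcc
SPOCK3, kept, chr4:168544044-168544073, minus strand: ccagtctgcCCACCAGAGGGCagcctagag
LRRC4C, kept, chr11:40743924-40743953, minus strand: ggctgtcgtCCAGTAGACGGCgcgtaagag
EPHA3, kept, chr3:89148309-89148338, minus strand: ccgtgctctCCACTAGAGGGCtctaaagag
BRIP1, kept, chr17:59914763-59914792, minus strand: cacttgggtCCAGCAGAGTGCgctgttgac

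The next 5 are the strongest lost isolated peaks with a match, none of which is perfect.
CELF4, lost, chr18:36370444-36370473, minus strand: atctttgtaCCCGCAGGGGGCagagcagag
CYYR1, lost, chr21:27862283-27862312, plus strand: aactgactaCCACTAGATAGCgacattcac
PRR20C, lost, chr13:57604863-57604892, minus strand: tcgactcccCAAGTAGAGGGCagtcctgtg
KLF12, lost, chr13:74861224-74861253, minus strand: gaggtctgcCCAGCAGGTGTCactagggac
SEMA6D, lost, chr15:47488354-47488383, plus strand: ttctgctgtCCTCCAGGTGGCagcatggcc

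The last set comprises the 3 strongest isolated peaks at sites that the authors called higher in treated cells (FAT3, SOX11 and IGHV3OR16-17), a peak at the start of CXCL12 of the same kind, the peak near GOLGA6L6, which is among the most isolated of all, and the peak in LINC03000, among the weakest that were kept.
FAT3, kept, chr11:92074158-92074187, plus strand: gtggcagcaCCTCTAGGGGGCagcattcta
SOX11, kept, chr2:5506186-5506215, minus strand: cgtgtcagtCCACCAGGGGGCgctgcctca
IGHV3OR16-17, kept, chr16:33619190-33619219, plus strand: ccctcagaaCCACCAGGGGGCgctgaggac
CXCL12, kept, chr10:44882170-44882199, minus strand: gaggcgccgCCACCAGAGGGCgccggagcc
GOLGA6L6, kept, chr15:20192828-20192857, minus strand: cgtgcggggCCACCAGGGAGCgctcgggac
LINC03000, kept, chr5:164385871-164385900, plus strand: ttaacatttCCACTAGGGGGTgcaaaagcg

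The median distance from an isolated peak to the nearest other control peak was 261.0 kb, and the largest was 5499.7 kb. Just inside the threshold lay peaks with distances of 200.05 kb and 200.1 kb, both lost, and just outside it peaks with distances of 199.85 kb and 199.5 kb, also both lost. The next peak inside, at 200.6 kb, and the next outside, at 199.3 kb, were both kept. Peak strength was read as the fold enrichment of ChIP over input in the deposited lists. It had a median of 26.4 at isolated peaks, with quartiles of 19.8 and 34.2, against 28.5 at the other control peaks. The median was 26.3 at control peaks whose nearest neighbour was 100 to 200 kb away. Isolated peaks reached from 1.74 to 72.2. Their median width was 250 bp, against 300 bp at the others. Only 6 isolated peaks had under 10-fold enrichment, and all 6 were lost. In the weakest of 10 equal groups of all control peaks, which reached up to 13.5-fold, 37 of 40 isolated peaks were lost (92.5%, 80.1% to 97.4%). Of the others in this group 88.3% were lost.

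Isolated peaks lay where genes are sparse. No start of a protein-coding gene was found within 200 kb of 298 of the 398 (74.9%, Wilson 95% interval 70.4% to 78.9%), against 14.7% of the other control peaks (14.4% to 15.1%). The median distance to the nearest such start was 440.3 kb, against 38.6 kb. The centre of 57.0% of isolated peaks was intergenic, 21.9% lay in protein-coding genes and 21.1% in genes of long noncoding RNA, whereas 53.1% of the other peaks lay in protein-coding genes. Exons held 8 isolated peaks (2.01%), against 9.65% of the others. The GC content of the surrounding 100 kb had a median of 36.4% at isolated peaks and of 42.5% at the others. At control peaks whose nearest neighbour was 100 to 200 kb away it was 37.7%, near that of isolated peaks. Chromosome 4 had the most isolated peaks, 47, or 2.21 for every 100 of its control peaks, and chromosome 17 had the fewest by this measure, 0.0956 for every 100. An assembly gap of at least 10 kb lay within 200 kb of 9 isolated peaks, and 2 had no control peak between them and a chromosome end.

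Of the 398 isolated peaks, 225 were lost and 173 were kept in CBL0137-treated cells, a lost share of 56.5% (Wilson 95% interval 51.6% to 61.3%). Among all control peaks of these chromosomes 42.7% were lost, and among the others 42.5%. The lost share at isolated peaks was thus 14.0 percentage points above that of the others (interval of the difference from the Wilson limits 9.06 to 18.8). These intervals cover counting error over peaks, which share their libraries and are not replicates of the conditions. On 9 of the 10 chromosomes with at least 20 isolated peaks the lost share was above that of the other peaks of the same chromosome, and the exception was chromosome 5, with 44.8% against 47.4%. Over all 22 chromosomes this was so on 15. Chromosomes 2 and 11 had the largest lost shares of these 10, with 22 of 31 isolated peaks (71.0%) and 16 of 23 (69.6%).

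**Figure D1:**
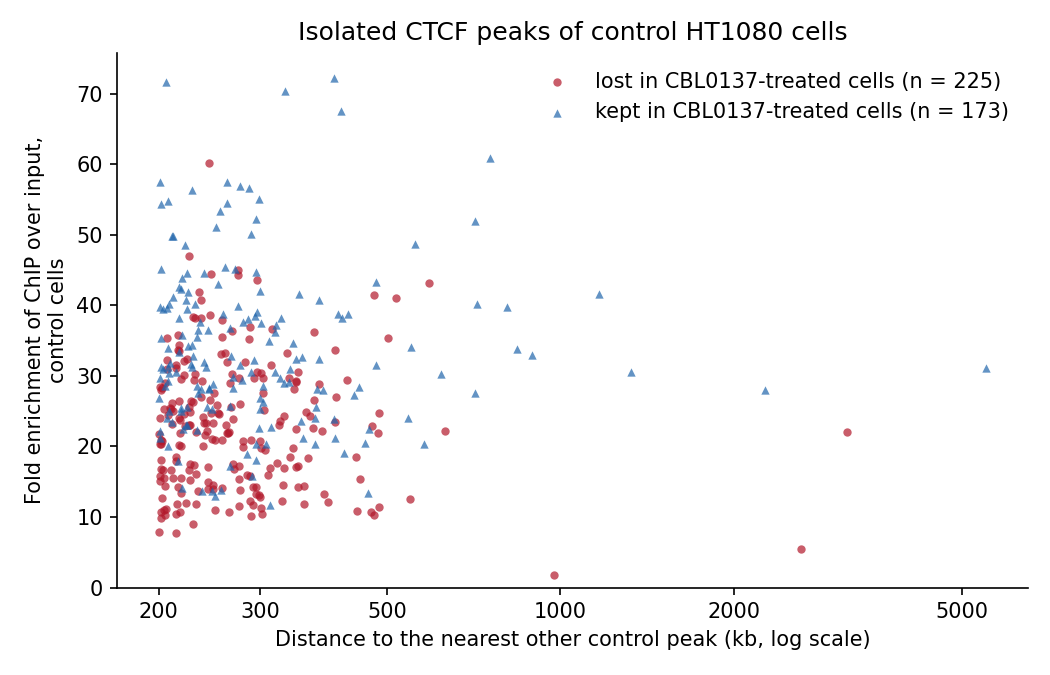
Each point is 1 of the 398 isolated control peaks, with the distance to the nearest other control peak in kb on a log axis and the authors' fold enrichment of ChIP over input in control cells; red circles are the 225 lost and blue triangles the 173 kept peaks. The median fold enrichment is 22.2 at lost and 31.8 at kept peaks, and both fates occur over most of the range of strength.

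Loss was already more frequent at larger distances below the threshold. It was 38.4% (36.5% to 40.2%) for control peaks with a neighbour within 1 kb, 40.0% (39.3% to 40.8%) at 5 to 20 kb, 50.5% (49.1% to 52.0%) at 50 to 100 kb and 57.6% (55.2% to 60.0%) at 100 to 200 kb. Among isolated peaks it was 58.8% (52.9% to 64.5%) at 200 to 300 kb and 55.9% (46.2% to 65.1%) at 300 to 500 kb. The 24 peaks farther than 500 kb from any other were lost in 33.3% of cases (18.0% to 53.3%), and 4 of these 24 lay beside an assembly gap, against 9 of all 398. Without the peaks over 500 kb away or beside a gap, the lost share of isolated peaks was 58.8%.

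**Figure D2:**
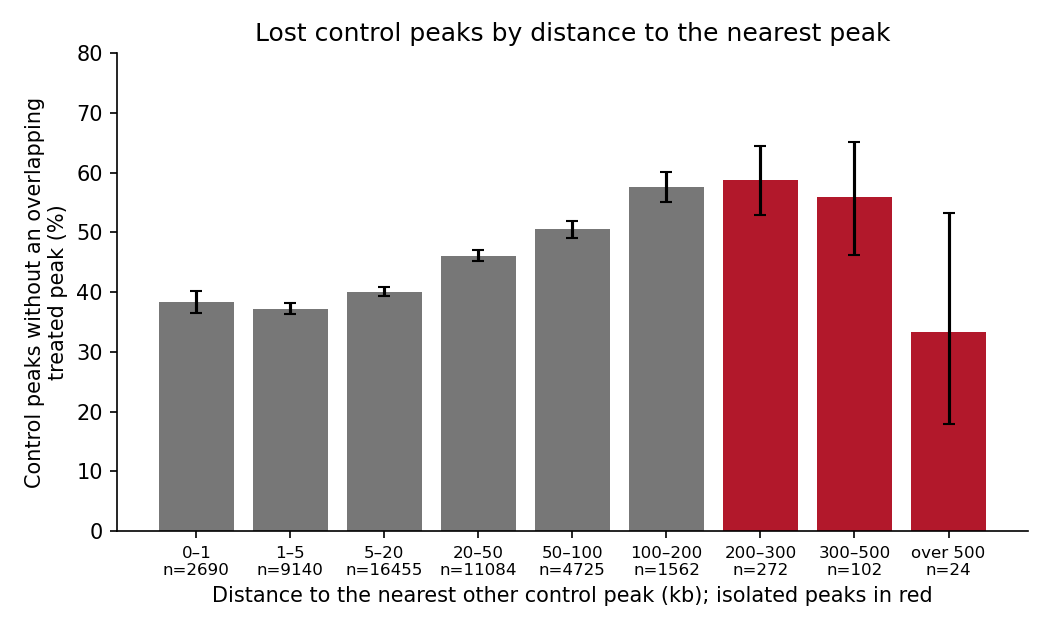
Share of control peaks without an overlapping peak in CBL0137-treated cells, in percent, by the distance to the nearest other control peak in kb, with the number of peaks under each bar, Wilson 95% intervals, and isolated peaks in red. The share is 38.4% within 1 kb, 57.6% at 100 to 200 kb, 58.8% at 200 to 300 kb and 33.3% over 500 kb.

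Strength in control cells separated kept from lost isolated peaks, as it did elsewhere. The median fold enrichment was 31.8 at kept and 22.2 at lost isolated peaks, and 34.7 and 20.3 at the kept and lost peaks among the others. In 77.5% of all pairs of a kept and a lost isolated peak the kept one had the higher fold enrichment, against 81.5% of such pairs among the others. In 8 of 10 equal groups of all control peaks, formed by fold enrichment, the isolated peaks had the higher lost share by point value. The widest gaps by point value were in the ninth group, counted from the weakest, with 36.0% (20.2% to 55.5%) against 12.8%, and in the seventh, with 45.5% (29.8% to 62.0%) against 26.2%. In the strongest group 1 of 24 isolated peaks was lost, against 7.40% of the others. Weighted to the strength of the isolated peaks, the other control peaks were lost in 46.0% of cases, which left a difference of 10.5 percentage points.

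The difference was smaller at like GC content of the surroundings. In the lowest of 5 groups by GC content of the surrounding 100 kb, which held 287 of the 398 isolated peaks, 62.0% of isolated peaks (56.3% to 67.4%) and 57.9% of the others (56.9% to 58.9%) were lost. In the next group the shares were 47.1% (35.7% to 58.8%) and 49.7%. Weighted to the surrounding GC content of isolated peaks in 10 groups, the others were lost in 56.3% of cases, 0.196 percentage points below the isolated peaks. With groups by both strength and GC content, the difference was 2.66 points. Similarly, among peaks without a protein-coding start within 200 kb, 56.4% of isolated peaks (50.7% to 61.9%) and 56.7% of the others (55.6% to 57.9%) were lost, a difference of -0.372 points (-6.17 to 5.27). Within the isolated peaks, those with a start in this range were lost in 57.0% of cases (47.2% to 66.3%).

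**Figure D3:**
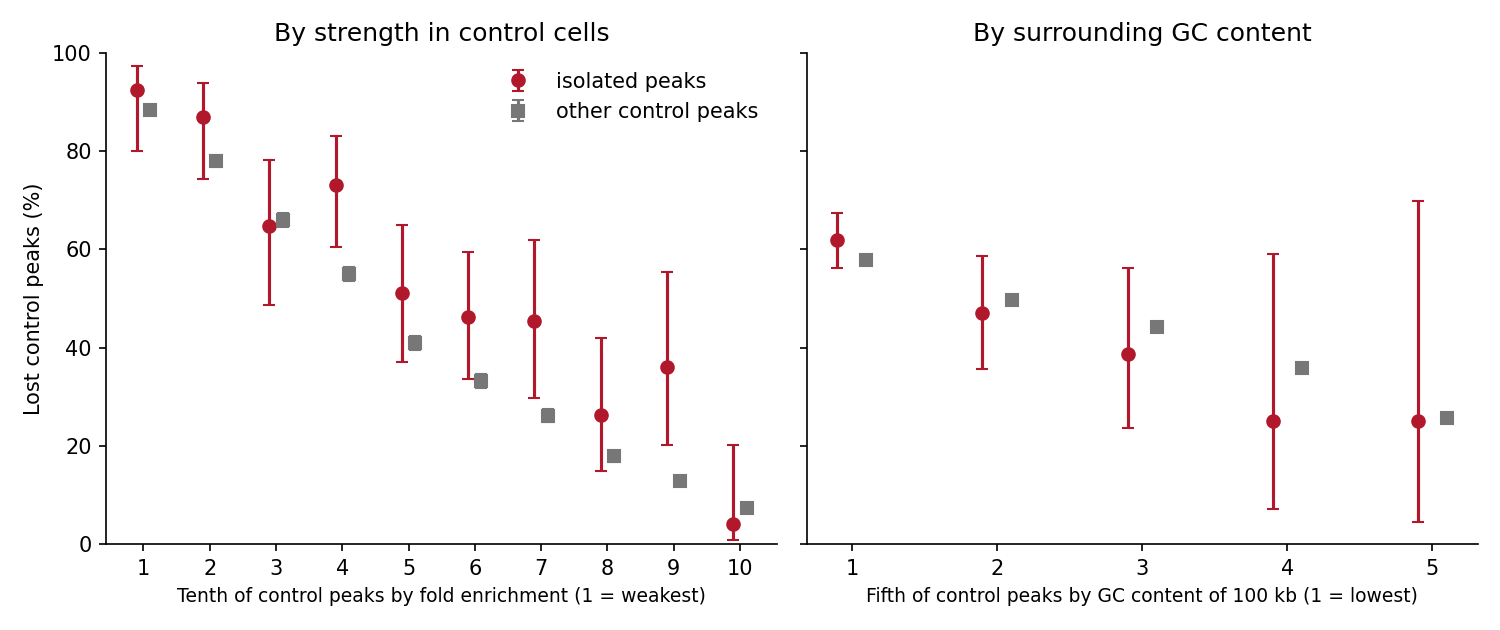
Lost share in percent with Wilson 95% intervals for isolated peaks (red circles) and the other control peaks (grey squares), on the left in 10 groups of all control peaks by fold enrichment in control cells and on the right in 5 groups by GC content of the surrounding 100 kb. Isolated peaks lie above the others in 8 of 10 groups by strength, and at 62.0% against 57.9% in the lowest group by GC content, which holds 287 of them.

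A core of the CTCF consensus with at most 1 mismatch lay within the 400 bp around 201 of the 398 isolated peaks (50.5%, 45.6% to 55.4%) and 48.8% of the other control peaks, a difference of 1.67 points (-3.24 to 6.58). Windows 10 kb to the left of the isolated peaks held such a core in 1.01% of cases (0.392% to 2.56%), and those of the other peaks in 2.81%. A perfect core was found at 12.8% of isolated peaks and 13.8% of the others. Kept isolated peaks had a core in 61.8% of cases (54.4% to 68.8%) and lost ones in 41.8% (35.5% to 48.3%). Lost peaks elsewhere had one less often, in 31.1% of cases, so that the lost isolated peaks exceeded them by 10.7 points (4.43 to 17.3), while the kept peaks of both classes differed by -0.136 points (-7.58 to 6.80).

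Loss of isolated peaks rose with the number of mismatches. Of the 51 with a perfect core, 15 were lost (29.4%, 18.7% to 43.0%), against 12.5% (11.7% to 13.3%) of the others with a perfect core. With 1 mismatch 79 of 150 were lost (52.7%, 44.7% to 60.5%), against 32.8%. With 2 mismatches the shares were 61.5% (53.0% to 69.5%) and 51.6%, and with 3 or more they were 76.1% (64.7% to 84.7%) and 69.3%. In both of these classes the order was turned by point value in the group of lowest surrounding GC content, as given below. The gap between isolated and other peaks was 19.7 points (12.9 to 26.6) with at most 1 mismatch and 9.18 points (2.30 to 15.4) with more, intervals that overlap. The median control fold enrichment of peaks with a perfect core was 30.6 at isolated peaks and 35.1 at the others.

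In some sites the core ends in C and a G follows, which makes a CpG. This was so for 23.9% of the cores at isolated peaks and for 23.5% of those at the others. Isolated peaks with this CpG were lost in 12 of 48 cases (25%, 14.9% to 38.8%), and those with a core but without this CpG in 82 of 153 (53.6%, 45.7% to 61.3%). At the other control peaks the corresponding shares were 6.25% (5.62% to 6.94%) and 33.5% (32.7% to 34.2%). Among peaks with the CpG, the lost share was thus higher at isolated peaks by 18.8 points (8.65 to 32.6). The strength of these peaks differed too, with a median control fold enrichment of 32.6 at isolated peaks and 39.3 at the others. At isolated peaks with a core but without the CpG this median was 28.3. In the lowest of the 5 GC groups, 11 of 28 isolated peaks with the CpG were lost (39.3%, 23.6% to 57.6%), against 71 of 585 of the others (12.1%, 9.73% to 15.0%), a difference of 27.1 points (11.2 to 45.6). The median fold enrichment of these peaks was 32.2 and 33.7. Of the isolated peaks with a core but without the CpG, 58.1% (49.1% to 66.7%) were lost there. This was 12.2 points (3.01 to 20.9) above the share of the others. The intervals of isolated peaks with and without the CpG overlap in this GC group. It held 28 of the 48 with the CpG and 117 of the 153 without it. In the same GC group, peaks with a perfect core differed by 10.7 points (-3.51 to 28.2) and all peaks together by 4.10 points (-1.73 to 9.62). With 1 mismatch, 60.2% (51.0% to 68.7%) of isolated peaks and 47.4% (45.6% to 49.1%) of the others were lost there. With 2 mismatches isolated peaks were lost less often by point value, at 65.9% (55.3% to 75.1%) against 68.6% (66.9% to 70.3%). With 3 or more the shares were 75.4% (62.9% to 84.8%) and 81.8% (79.8% to 83.5%), and in both classes the intervals overlap. GC content was not alike within this GC group. The lowest of 10 GC groups held 228 of its 287 isolated peaks and 4378 of its 8924 others. DNA methylation was not measured, and whether methylation of this CpG affects CTCF binding was not tested.

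**Figure D4:**
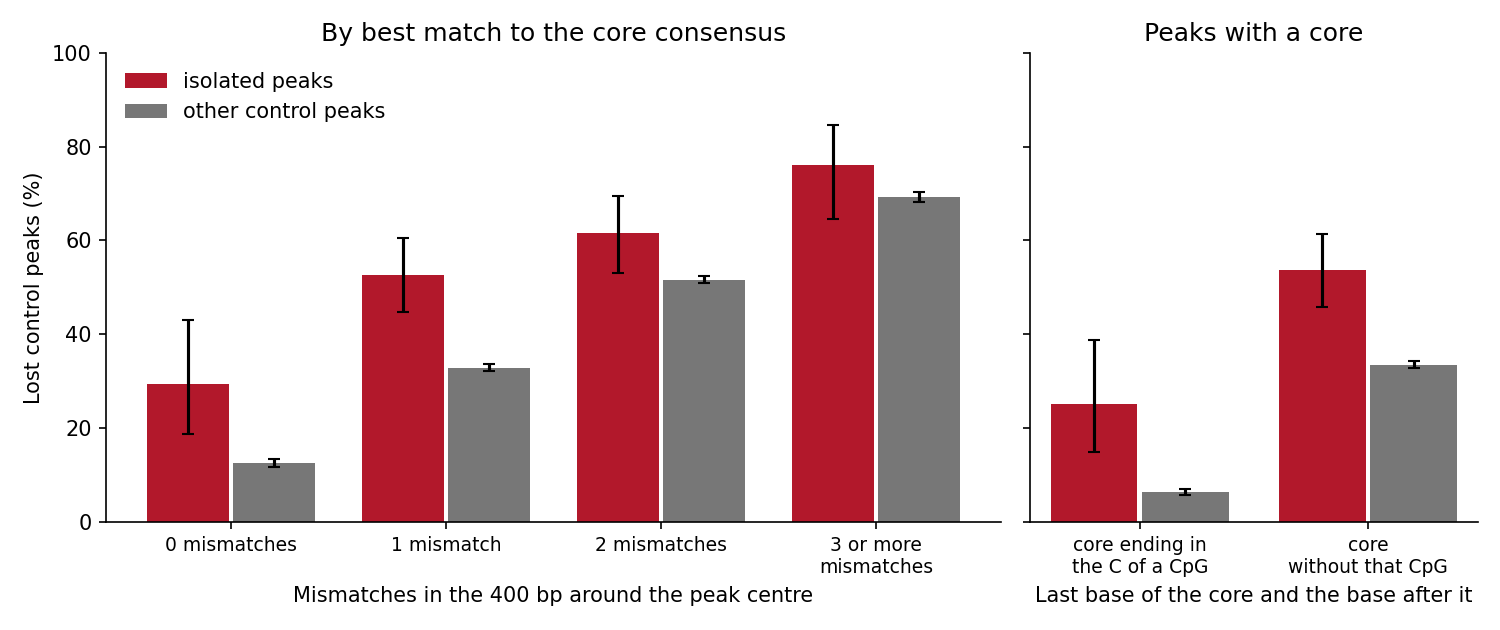
Lost share in percent with Wilson 95% intervals for isolated (red) and other control peaks (grey), on the left by the mismatches of the best match to the core consensus and on the right, for peaks with at most 1 mismatch, by whether the core ends in the C of a CpG. The share rises from 29.4% to 76.1% at isolated peaks and from 12.5% to 69.3% at the others, and is 25% against 53.6% at isolated peaks with and without this CpG.

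Among the kept isolated peaks, that with the highest fold enrichment lay in intergenic DNA on chromosome 6 at 103067551 to 103067800, 1657 kb from the start of GRIK2, which encodes a kainate receptor subunit. Its fold enrichment over input was 72.2 in control cells, at percentile 99.4 of the control list, and its treated peak stood at percentile 33.1 of the treated list. Its best core had 3 mismatches. A fold is relative to the input of its own condition, so that percentiles within each list are set side by side here and no fold of one list is divided by that of the other. On chromosomes 1 to 22 the control list held 46054 peaks and the treated list 28796. A percentile thus also depends on which other peaks its list holds. A change of percentile is therefore no measure of changed binding at a site. The peak near ARGLU1 stood at percentile 99.4 and then at 79.8, and the peak near SPOCK3, the gene of a secreted proteoglycan, at 99.3 and 93.6.

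The kept peaks in LRRC4C and near EPHA3 overlapped sites that the authors called higher in control cells. The peak in an intron of LRRC4C, a synaptic adhesion protein, went from percentile 98.9 to 33.6, and narrowed from 350 bp to the stretch at 40743801 to 40744050. The peak near EPHA3, an ephrin receptor, lay 8445 bp from the start of the gene and was 752.9 kb from any other control peak. It kept its position at 89148151 to 89148500 and went from percentile 97.4 to 51.4. The peak in BRIP1, a DNA helicase of the Fanconi anaemia pathway, stood at percentile 96.3 in control and 71.9 in treated cells.

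The 6 strongest lost isolated peaks all overlapped sites higher in control cells, as did 80.4% of all lost isolated peaks and 78.3% of the other lost peaks. The first of them, on chromosome 18 at 36370351 to 36370600, 1225 kb from the start of CELF4, had a fold enrichment of 60.2 and an FDR of 3.72e-06 in control cells. It was the only lost isolated peak in the strongest of the 10 groups. The peak in an intron of CYYR1 had a fold enrichment of 47.0, and the peak 110.0 kb from the start of PRR20C, a member of a multicopy gene family, had 45.0. The core shown for the latter lies outside the called peak, which spans 57604951 to 57605100. The peak near KLF12, the gene of a zinc-finger repressor, had a fold enrichment of 44.5, and that in SEMA6D, 12.1 kb from its start, had 44.3. The last of the 6 lay within the noncoding gene ENSG00000288085, in an intron, 301.9 kb from the start of EPHA7, with a fold enrichment of 43.6 and a best core with 2 mismatches.

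The weakest kept isolated peaks were near the bottom of the control list. They lay in an intron of LINC02109, at percentile 6.17 in control and 10.8 in treated cells, in an intron of LINC03000, at 8.99 and 17.8, and in intergenic DNA 1350 kb from the start of CDH8, a cadherin, at 9.79 and 32.6. None of these 3 overlapped a differential site.

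The peaks farthest from any other control peak lay in pericentromeric DNA or beside gaps. The first, on chromosome 9 at 44227351 to 44227500, was 5499.7 kb from its nearest neighbour and was kept, with percentiles of 57.5 and 62.1. The weak peak at 68414101 to 68414200 of the same chromosome (fold enrichment 5.54) was lost, as was the peak on chromosome 11 at 51560051 to 51560150, 44.8 kb from the start of the olfactory receptor gene OR4C46. The peak on chromosome 15 at 20192701 to 20192900, 554.3 kb from GOLGA6L6, was kept. Of these 4, those that were lost and that near GOLGA6L6 had an assembly gap within 200 kb, and only the last had a core with at most 1 mismatch. Reads with more than 1 alignment had been removed by the authors, and the share of such reads at these positions was not measured.

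Sites that the authors called higher in control cells were found at 220 of the 398 isolated peaks (55.3%, 50.4% to 60.1%), beside 51.2% of all control peaks. Of these 220 peaks 181 were lost (82.3%, 76.7% to 86.8%), whereas of the other control peaks at such sites 65.0% were lost. Kept isolated peaks overlapped such a site in 39 of 173 cases (22.5%, 17.0% to 29.3%), against 31.2% of the other kept peaks. At these 39 peaks the median fold enrichment over treated input was 16.6. Both kinds of list come from the same libraries, so that they are not independent of each other.

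Sites higher in treated cells were found at 8 isolated peaks (2.01%, 1.02% to 3.92%), beside 2.44% of all control peaks. All 8 were kept, as were all 1116 of the other control peaks at such sites. Of the 8, 5 had a perfect core (62.5%, 30.6% to 86.3%) and the other 3 had 1 mismatch. Over all kept isolated peaks 20.8% had a perfect core (15.4% to 27.5%). The share among the other control peaks at such sites was not counted. Beside the 3 chosen by rule, near or in IGHV3OR16-17, FAT3 and SOX11, the remaining 5 were named after their values were seen. The peak near CXCL12, which encodes a chemokine, was centred 260 bp from the start of the gene and went from percentile 61.0 in control to 99.7 in treated cells, with a fold enrichment of 82.9 over treated input. The peak in an intron of XRCC4, a DNA ligation factor, went from 10.5 to 94.0, and widened from 100 bp to the stretch at 82429601 to 82429950. The peaks near ZNF716, VSTM2A and CNTN6 went from 56.0 to 94.6, from 37.3 to 56.9 and from 29.4 to 71.9. The peak near SOX11, a transcription factor of neural development, went from 65.4 to 87.0, that in FAT3, a large cadherin, from 91.4 to 92.9, and that near IGHV3OR16-17, an immunoglobulin variable segment outside the main locus, from 93.1 to 99.5.

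Over all 173 kept isolated peaks, the percentile fell in 115 (66.5%, 59.1% to 73.1%), against 65.0% of the other kept peaks (64.4% to 65.5%). The median change was -10.3 points at kept isolated peaks and -9.27 points at the other kept peaks. The percentiles of control and treated cells are ranks among different sets of peaks, so that a fall is no measure of weaker binding. The median control percentile was 59.2 at kept isolated peaks and 66.8 at the other kept peaks, both above the middle of the control list. The treated peak was narrower than the control peak in 52.0% of isolated cases (44.6% to 59.3%), of equal width in 33.5% and wider in 14.5%, while 62.7% of the other kept peaks were narrower.

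Isolated peaks at promoters were few. The centre of 6 isolated peaks lay within 1 kb of a protein-coding start, and these were counted and named after their values were seen. They lay at CXCL12, ZFAND4, NOX4, ZNF268, VPS36 and ZNF568, and none of the 6 was lost, with a Wilson upper limit of 39.0%, while the limit of 3 counts out of 6 is 50%. At other control peaks within 1 kb of a start 27.9% were lost. Those were peaks of any strength, whereas the 6 stood at percentiles from 60.5 to 94.8 of the control list. The peak 32 bp from the start of VPS36, a subunit of an endosomal sorting complex, stood at percentile 94.8 in control and 97.2 in treated cells. That 871 bp from the start of NOX4, an NADPH oxidase, stood at 60.5 and 58.2.

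Protein-coding genes that held an isolated peak numbered 77, and 8 of them held more than 1. These 8 genes, also named after their values were seen, held 18 isolated peaks, of which 11 were lost, beside a lost share of 56.5% over all isolated peaks. A gene can hold more than 1 isolated peak only if it spans over 200 kb. Both peaks in ROBO2, an axon guidance receptor, were lost, with fold enrichments of 24.1 and 33.6, and so were both in GRIK2, with 14.0 and 20.8, and both in NAALADL2, with 11.6 and 23.3. Both peaks in CNTN4, a neural adhesion protein, were kept, with 29.3 and 48.7. In SEMA6D, a semaphorin, the peaks with fold enrichments of 29.8 and 31.9 were kept and the peak with 44.3 was lost, so that the order of strength was turned there. In EYS, a gene needed by photoreceptors, the peak with 44.6 was kept and those with 17.5 and 19.9 were lost. NRG3, a neuregulin, and CARD18 each had 1 peak of either fate.

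The rule itself makes the stretch between the neighbours of an isolated peak long, and in control cells the shortest was 414200 bp. The neighbouring control peaks were a median of 665.5 kb apart around lost and 683.4 kb apart around kept isolated peaks. The neighbouring treated peaks were a median of 928.6 kb apart around lost and 1005 kb apart around kept ones. A treated peak other than that at the isolated peak itself lay within 200 kb of 31 isolated peaks (7.79%, 5.54% to 10.8%), and 15 of these 31 were lost (48.4%, 32.0% to 65.2%), against 57.2% (52.1% to 62.2%) of the isolated peaks without one. The list of treated cells held 937 isolated peaks of its own by the same rule, or 3.25% of its 28796 peaks on these chromosomes. Of these, 157 were at an isolated control peak, 715 (76.3%, 73.5% to 78.9%) at a control peak that had neighbours, and 65 at no control peak. Of the 173 kept isolated peaks, 157 remained isolated in the treated list.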

How the data were processed

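CTCF ChIP and input of control and CBL0137-treated cells were sequenced, and samples were grouped by their titles. The authors mapped reads to hg19 with Bowtie2 2.2.3, removed duplicates and reads without a unique position with SAMtools 1.5, and called peaks with PePr (p-value cutoff 0.05, windows of 100 bp). The deposited lists of each condition give, for each peak, a fold enrichment (the ratio of ChIP to input), the p-value of that enrichment and its FDR, a q-value. They have no header, and columns were read in broadPeak order. Of the authors' differential lists only the positions were used; their columns of fold, p-value and FDR hold the authors' own comparison of the conditions and were left out.

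Edge distances between peaks, overlaps of at least 1 bp, and the degenerate 12-base CTCF core with at most 1 mismatch in 400 bp were computed with pysam 0.24.0, pandas 2.3.3 and numpy 2.4.6 under Python 3.11.15, on GRCh37 with GENCODE v44 mapped to that build. All peaks of chromosomes 1 to 22 fell within its chromosome lengths. The routines were tested on simulated data. Shares have Wilson 95% intervals and differences intervals built from the Wilson limits. These cover counting error only, and depth per peak is unknown.

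The members, features and groups were chosen with earlier results of these data known. Named sites were the 6 kept and the 6 lost isolated peaks with the highest control fold enrichment, the 4 farthest from another peak, the 3 strongest at a site higher in treated cells and the 3 weakest kept. Other named sites are marked as such. The alternatives tried are given in the closing section.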

Additional observations from a re-analysis of the deposited data

How the results depend on the processing

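No paired analysis was possible because each peak list used here pools the replicates of a condition; for the same reason, these lists give no value without replicate 1, without replicate 2 or under a replicate block. The isolation distance moved most values. At 100 kb there were 1960 isolated peaks, of which 60.6% overlapped a site higher in control cells. At 500 kb there were 24, with a lost share of 33.3%, a difference from the others of -9.34 points, or -3.36 points at like strength, a core in 58.3% and a site higher in control cells in 20.8%. With an FDR of at most 1e-05 in both lists there were 624, with a site higher in control cells in 63.5%. Their lost share was 61.4%, which was 18.0 points above that of the others. The share of the others at sites higher in control cells was not counted at these settings. Counting a peak as kept only where the shared bases exceeded 50% of the wider peak gave a lost share of 61.8%. This was 11.4 points above that of the others. The difference from the others, 10.5 points at like strength, was 0.196 points at like surrounding GC content and 2.66 points at like strength and GC content, the last a setting added after the data were seen. A core without mismatch was found at 12.8% of isolated peaks, and one with at most 2 mismatches at 83.2%, against 13.8% and 83.5% of the others. Windows 10 kb away were counted only for at most 1 mismatch. How often looser matches occur away from peaks was thus not measured. In all, 34 values moved by less than their counting interval, or by less than 1.5 times for a count, and kept their direction. The differences of 18.0 and 11.4 points were among these 34. The cause of these shifts was not tested.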
